A study of Mus musculus with 27 samples.

Results

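The step from the late embryonic to the newborn esophagus of wild-type mice was described on 6 of the 27 arrays of the study. The late embryonic profile was made of 3 arrays, namely E15.5 replicates 2 and 3 and the array titled E11.5 replicate 3, and it was compared with the 3 arrays of the day of birth (P0). This grouping departs from the deposited labels for the array titled E11.5 replicate 3, which was placed with E15.5, and for E15.5 replicate 1, which was left out. All of these samples were whole esophagi of C57BL/6J mice, and neither group carried a mutant allele or a treatment. E11.5 and E15.5 stand for days of embryonic development, and P0 and P7 for the day of birth and the 7th day after it; the tests below also used the other wild-type arrays of these 4 stages, 12 arrays in all. On each array the RNA of an esophagus was labelled with Cy5 and a reference RNA pooled from mouse cell lines with Cy3, so every level below is a log2 ratio of esophagus to that reference, and a value of 0 means an equal signal in both.

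The arrays were chosen by their correlations of log2 ratios, given here over 19439 genes as a description. The 3 arrays of the late embryonic profile correlated with one another at r = 0.97 to 0.98, and so did the 3 arrays of P0. Late embryonic arrays correlated with P0 arrays at r = 0.81 to 0.84. The array titled E11.5 replicate 3 reached r = 0.98 with E15.5 replicates 2 and 3 and r = 0.77 to 0.83 with E11.5 replicates 1 and 2. E15.5 replicate 1 did the reverse, with r = 0.80 to 0.81 with E15.5 replicates 2 and 3 and r = 0.93 to 0.96 with E11.5 replicates 1 and 2. Both arrays lay on the same slide, slide 1, and no slide held arrays of both E15.5 and P0, so slide and stage cannot be fully told apart. On the 6 arrays compared, the median Cy5 intensity was 108 to 146 and between 64.7% and 69.3% of spots were well above background.

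Because the profile was assembled from measured likeness, no p-value is given for it. A gene is called apart where all 3 arrays of one set lay beyond all 3 of the other and the means differed at least 2-fold. Of 19439 genes measured, 1162 (5.98%) were apart and higher at P0 and 424 (2.18%) were apart and lower. The test used the deposited labels. It shares the 3 arrays of P0 and E15.5 replicates 2 and 3 with the comparison above, so it is not independent of it. In a limma fit of the 12 arrays, P0 against the 3 arrays labelled E15.5, 2279 of 19475 genes (11.7%) rose and 1710 (8.78%) fell (threshold 0.05 after Benjamini-Hochberg adjustment), and below, "rose" and "fell" refer to this test. The same fit without E15.5 replicate 1 and the array titled E11.5 replicate 3 called 2104 genes (10.8%) higher and 1761 (9.05%) lower. Those arrays were left out for their measured values, so the p-values of this fit are not independent of the data. Values given below as "without both arrays" come from it and are descriptions, not tests. Leaving out P0 replicate 2 instead gave 1487 and 816, P0 replicate 3 gave 1510 and 881, P0 replicate 1 lowered the second count to 958, and E15.5 replicate 1 alone lowered it to 1053. All p-values measure the spread between samples. The shares over all genes given here are to be set beside the counts of every list below.

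The esophagus of the embryo is lined at first by a simple columnar epithelium, which becomes stratified and for a time carries ciliated cells at its surface. These are replaced by a squamous epithelium, in which cells leave the basal layer, stop dividing, exchange their keratins and crosslink small proteins under the membrane into a cornified envelope. Around the epithelium, smooth muscle is joined and in the mouse largely replaced by skeletal muscle, and neurons and glia derived from the neural crest settle between the layers. In RNA of a whole organ, fewer cells of a type and less RNA per cell cannot be told apart.

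Promoter sequences from 3 groups of genes whose members differed largely in 1 direction are shown first. Each was picked for holding a motif with its window wholly before the start of the gene, in order of the difference among such members. RefSeq promoters of GRCm38.p6, each a stretch around the start of a gene, were found for 27025 genes. In the cornified envelope list, 13 of 31 members with a promoter (41.9%) held TGANTCA on either strand, against 8.97% of all genes. This is an AP-1 site with its middle base left free, which is looser than the usual G or C there. Among the 20 members with a promoter that were apart and higher at P0 it was 12. Members with the match include Sprr2b, Sprr2d, Sprr2e, Sprr2f, Sprr2h and Sprr2k, related genes close together on chromosome 3. Each of them has a match at -193 to -198 from the start, so these matches are not independent of one another. Both Sprr2f and Sprr2d, small proline-rich proteins of the envelope, Sbsn (suprabasin) and Sprr1a were among the 12. The windows below are written 5′ to 3′ along each gene with the match in capitals.
Sprr2f: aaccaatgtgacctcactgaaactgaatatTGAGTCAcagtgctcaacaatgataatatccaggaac
Sprr2d: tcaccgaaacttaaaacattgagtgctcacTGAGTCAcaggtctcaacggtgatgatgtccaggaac
Sbsn: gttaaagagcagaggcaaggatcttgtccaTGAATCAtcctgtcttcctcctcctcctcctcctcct
Sprr1a: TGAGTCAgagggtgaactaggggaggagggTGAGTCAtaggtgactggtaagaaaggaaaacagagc
The windows lie at chr3:92364960-92365026 (plus strand), chr3:92338917-92338983 (plus), chr7:30751322-30751388 (plus) and chr3:92485961-92486027 (minus), and the match at the centre of each window begins at -197, -193, -119 and -116 from the start. The match shown for Sbsn is TGAATCA, and its other match, TGAGTCA at -6, lies outside the window. Rptn was counted through TGATTCA.

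In the motile cilia list, 20 of 47 members with a promoter (42.6%) held GTTGCCNNG, one arm of the X-box read by RFX factors, on either strand, against 5.74% of all genes. Among the 16 members with a promoter that were apart and lower at P0 it was 9. The windows of Ccno, Deup1, Cfap161 and Mns1 read as follows, and the capitals show the match or its complement.
Ccno: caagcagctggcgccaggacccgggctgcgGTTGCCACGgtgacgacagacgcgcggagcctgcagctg
Deup1: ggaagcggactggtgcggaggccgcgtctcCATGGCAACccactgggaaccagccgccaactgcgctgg
Cfap161: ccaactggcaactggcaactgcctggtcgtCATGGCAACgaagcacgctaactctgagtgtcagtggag
Mns1: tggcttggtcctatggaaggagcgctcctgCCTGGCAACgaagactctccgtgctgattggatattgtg
They lie at chr13:112987553-112987621 (plus), chr9:15627890-15627958 (minus), chr7:83794843-83794911 (minus) and chr9:72438424-72438492 (plus). For skeletal muscle, a loose form of the MEF2 site was found on either strand in 5 of 35 promoters (14.3%) against 4.23% of all genes. Among the 28 members with a promoter that were apart and higher at P0 it was 4. The 4 middle bases of this form were left free, which is looser than the usual A or T there. Smpx was counted through a match with a G among these bases and Ldb3 through one with a C. Smpx and Ttn are shown, with the match in capitals.
Smpx: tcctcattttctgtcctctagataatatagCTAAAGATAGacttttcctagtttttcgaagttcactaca
Ttn: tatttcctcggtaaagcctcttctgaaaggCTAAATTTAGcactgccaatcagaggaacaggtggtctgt
These windows lie at chrX:157698817-157698886 (plus) and chr2:76982674-76982743 (minus). TTTGAA, the letters of the CHR element of mitotic genes, was in 21 of 44 promoters of the cell cycle list (47.7%) and in 20.2% of all, but in 0 of the 5 members with a promoter that were apart and lower at 2-fold or more. These matches are descriptions of letters, and no binding was measured.

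The 10 largest increases spanned genes from far below the reference to above it in the embryo. Ppbp, a platelet and neutrophil chemokine, had log2 ratios of 0.11, 0.97 and 0.89 on the late embryonic arrays (given throughout as E15.5 replicates 2 and 3, then the array titled E11.5 replicate 3) and of 7.91, 7.93 and 7.68 at P0, which is 145-fold higher. Its log2 change by the labels was 6.75 ± 0.55 SE (limma adjusted p = 3.73e-05). Cstdc6, a stefin-type inhibitor of cysteine proteases, went from 2.73, 2.96 and 3.16 to 8.91, 9.02 and 8.66, a 60.4-fold difference. Neither gene had overlapping sets, and E15.5 replicate 1 read 2.19 for Ppbp and 0.07 for Cstdc6.

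Another 4 of the 10 largest increases belonged to the surface barrier and its transport. Defb14, a beta-defensin that kills bacteria, was not well above background on any late embryonic array and on all 3 at P0 (5.73, 5.71 and 5.6), and it was 45.7-fold higher by the ratios. For such genes a fold was also taken from the normalized Cy5 signal, called "by Cy5 alone" below. It is not divided by the reference signal, but its normalization used the reference channel. It can lie above or below the fold of the ratios. The words "at least" mean only that a floor was put under the dim signal. For Defb14 it was at least 190-fold, above the 45.7-fold of the ratios, so such a value is not a lower limit of the change. Sprr2f likewise was 42.7-fold higher by the ratios (5.42, 5.19 and 4.91 at P0) and at least 44.4-fold by Cy5 alone. Spink5, an inhibitor of the proteases that shed surface cells, had 0.44, 0.45 and 0.48 against 6.17, 6.10 and 6.02 and was detected on 1 of 3 late embryonic arrays. Slc6a14, an amino acid importer, was 38.8-fold higher, from 0.68, 0.63 and 0.72 to 5.98, 5.89 and 6.01.

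The remaining 4 were Unc93a, a membrane protein (41.6-fold), Galnt15, an enzyme that starts O-glycans (35.7-fold, detected on 2 of 3 late embryonic arrays), Ifi202b, an interferon-inducible gene (34.5-fold), and Slc5a8, a transporter of lactate and short fatty acids (31.9-fold). Ifi202b stood far below the reference in the embryo (-5.31, -5.28 and -4.97) and near it at P0 (0.03, -0.05 and -0.20). All 10 rose by the labels, in a test that reuses the P0 arrays and E15.5 replicates 2 and 3 by which they were picked. From P0 to P7, in a comparison that shares the P0 arrays, Ifi202b changed by -2.48 (limma adjusted p = 0.00891), and the other 9 did not pass the test.

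The 10 largest decreases divided by how E15.5 replicate 1 read them. For E030010N08Rik, an uncharacterised transcript, the late embryonic ratios were 4.78, 3.88 and 4.19 and those at P0 -0.54, -0.13 and 0.23, a 21.6-fold difference. Ncan, a proteoglycan of neural matrix, went from 3.50, 3.23 and 3.31 to 0.25, -0.01 and -0.03 (9.67-fold), and Dll3, a Notch ligand that acts inside the cell, from 3.35, 2.78 and 3.16 to 0.20, 0.43 and 0.08 (7.23-fold). Together with C230008H04Rik (7.78-fold) and Foxa2 (7.95-fold), these fell by the labels, with changes of -2.32 to -4.11, and E15.5 replicate 1 held them between 2.38 and 6.20.

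The other 5 did not pass the test by the labels, and E15.5 replicate 1 read them between -1.59 and 0.74. Ccno, which starts the multiplication of centrioles in multiciliated cells and stands on the array under its older name Ung2, had 2.59, 2.40 and 2.42 against -2.05, -1.74 and -1.91, a 20.7-fold decrease, with -1.59 on E15.5 replicate 1. Upk3a, a urothelial plaque protein, went from 2.92, 3.77 and 3.35 to -0.72, -0.90 and -0.27 (15.8-fold), Meig1, known from the sperm manchette, from 5.10, 4.67 and 4.54 to 1.23, 1.47 and 1.77 (9.71-fold), and Ccna1, a cyclin of germ and ciliated cells, from 4.07, 3.39 and 3.75 to 0.77, 0.45 and 0.50 (8.97-fold). Tnn (tenascin N, 8.41-fold) was the last. Their adjusted p by the labels lay between 0.0816 for Ccno and 0.491 for Meig1.

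**Figure D1:**
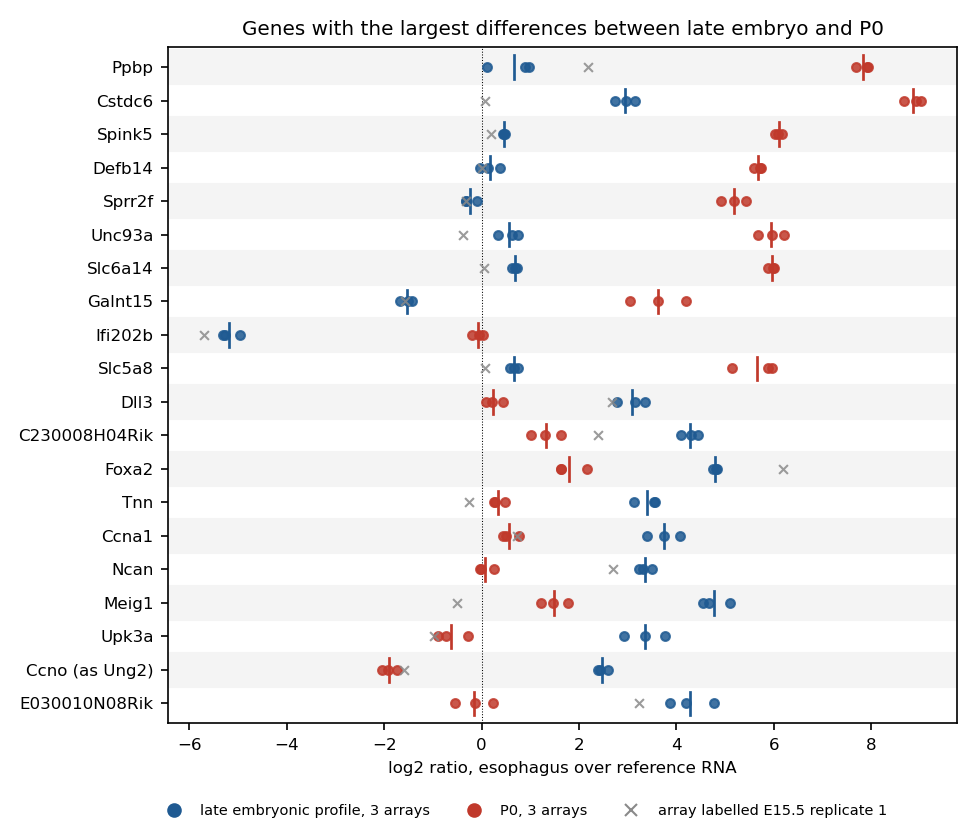
Log2 ratio of esophagus to reference RNA (x axis) for the 10 genes with the largest increase and the 10 with the largest decrease from the late embryonic profile to P0 (rows), 1 point per array, with bars at the mean of 3 arrays. The 2 sets do not overlap for any gene, by the way they were chosen, and the cross for E15.5 replicate 1 lies with P0 for Ccno, Upk3a and Ccna1 but with or above the embryonic arrays for Foxa2.

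Uroplakins other than Upk3a, looked at after its values were seen, went other ways. Upk1b rose from 3.20, 3.23 and 2.89 to 6.95, 6.79 and 7.03 (14.1-fold), Upk3b from -2.61, -1.98 and -1.62 to 0.50, 0.51 and -0.08 (5.21-fold), and Upk2 had 2.39, 2.32 and 2.28 against 2.72, 2.37 and 2.56. Upk1b and Upk3b rose by the labels (log2 changes 4.56 ± 0.76 and 2.51 ± 0.27 SE), and Upk2 did not pass the test.

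Genes of the squamous surface were higher at birth. Of 37 measured genes of the cornified envelope, 22 were apart and higher at P0 and none was lower, with a median difference of 1.59 against -0.0059 over all genes; 23 rose by the labels and 25 without both arrays. Of the 37, 5 were well above background on no late embryonic array. They counted as measured through P0 alone, which tilts these counts and the median toward higher. The median log2 ratio of the list was 0.08 to 0.25 on the 3 late embryonic arrays, 0.02 on E15.5 replicate 1, 2.12 to 2.90 at P0 and 3.50 to 4.08 at P7. From P0 to P7, 13 of the 37 rose, where 223 of all genes (1.15%) did.

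Small proline-rich proteins, precursors that are crosslinked into the envelope, were among these. Sprr2d was not well above background on any late embryonic array and had 5.14, 5.22 and 4.78 at P0, which was 31.8-fold higher by the ratios and at least 146-fold by Cy5 alone. Sprr3 had 0.44, 0.46 and 0.60 against 5.64, 5.51 and 4.98 (29.4-fold, detected on 1 of 3 late embryonic arrays), and Sprr1a -0.91, -0.69 and -1.11 against 2.76, 2.82 and 2.37 (11.7-fold). Sprr2 genes have similar sequences, and their probes may share signal.

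Envelope genes of other families were higher too. Crct1, a cysteine-rich gene of the epidermal differentiation complex, was 24.3-fold higher, Cnfn (cornifelin) 14.2-fold, Sbsn 11.7-fold and Tgm3, a transglutaminase that makes the crosslinks, 6.99-fold. Involucrin, Ivl, was not well above background in the embryo and at least 1.93-fold higher at P0 by Cy5 alone. Loricrin, Lor, had 3.90, 4.33 and 4.08 against 6.08, 6.03 and 5.53, a difference of 1.78 that did not pass by the labels (limma adjusted p = 0.22), with 6.11 on E15.5 replicate 1. The plakin Ppl rose (difference 1.75), and its partner Evpl had 3.27, 3.18 and 3.30 against 3.87, 3.81 and 3.55. Tgm1, the transglutaminase of the membrane, was well above the reference in the embryo already, with 3.77, 3.67 and 3.64 against 4.58, 4.30 and 4.51.

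Late cornified envelope genes differed among the newborn arrays. Lce3f read 3.06, 6.69 and 2.90 at P0 and 0.04, 0.06 and 0.85 before (detected on 2 of 3 late embryonic arrays), and Lce3c read 2.16, 3.53 and 0.88 after -0.08, -0.13 and -0.04. In both P0 replicate 2 was the highest. Rptn (repetin), not well above background in the embryo, had 2.54, 3.54 and 1.69, and was at least 4.5-fold higher by Cy5 alone.

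Proteases of the squamous surface and their inhibitors moved with the envelope. Of 25 measured, 17 were apart and higher and none lower, the median difference was 1.39, and 20 rose both by the labels and without both arrays. Of the 25, 8 were well above background on no late embryonic array. They counted as measured through P0 alone, which tilts these counts and the median toward higher. The stefins Csta1 (0.49, 0.63 and 0.48 against 5.41, 5.04 and 5.05, 24.8-fold) and Stfa3 (2.16, 2.52 and 2.65 against 7.31, 6.92 and 6.38, 21.5-fold), which block cathepsins, came after Cstdc6. Stefin genes are near copies of each other, so their probes may share signal. Serpinb2, a serpin of the plasminogen activators, was 14.8-fold higher by the ratios and at least 16.7-fold by Cy5 alone, Prss27, a serine protease of squamous epithelia, was 9.76-fold higher, and Klk12, a kallikrein, at least 5-fold by Cy5 alone. Klk7, a kallikrein that cleaves desmosomes in the epidermis, had 0.06, 0.11 and 0.08 against 0.27, 0.41 and -0.10, so its sets overlapped.

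Keratins, the intermediate filament proteins of epithelia, differed gene by gene. Among 4 basal keratins Krt14 had 1.85, 1.91 and 1.77 against 2.83, 2.69 and 2.40, and Krt5, Krt15 and Krt17 differed by 0.17 to 0.24, and none of the 4 passed the test. Krt5 and Krt15 stood at 3.14 to 4.25 on all 6 arrays, so markers of a stratified epithelium were present before and after. Of 12 suprabasal keratins measured 4 were apart and higher, and of the 11 tested by the labels 5 rose. Krt80 (-0.79, -0.79 and -1.23 against 3.17, 3.30 and 2.99, 17-fold), Krt16 (12.7-fold), Krt78 (9.18-fold) and Krt6b (5.62-fold) were these 4.

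The suprabasal pair typical of esophagus, Krt4 and Krt13, was in place before birth. Krt4 had 5.28, 5.09 and 5.17 on the late embryonic arrays and 5.34, 5.70 and 5.51 at P0, and Krt13 had 3.66, 3.92 and 3.84 and then 4.35, 3.96 and 4.24. E15.5 replicate 1 held -0.22 and -0.47. The epidermal Krt1 had 0.72, 0.89 and 0.64 against 0.62, 1.20 and 0.36, and its sets overlapped. Among keratins of simple epithelia, Krt7 rose from 2.19, 2.28 and 2.01 to 4.22, 4.0 and 4.0, Krt20 was 6.49-fold and Krt19 3.23-fold higher, while Krt18 had -1.19, -1.35 and -1.36 against -1.27, -1.12 and -1.58.

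Junctions were raised in part. In desmosomes, which rivet keratin filaments between cells, 4 of 12 genes were apart and higher and 5 rose. Perp, a membrane component, went from 3.82, 3.50 and 3.59 to 5.55, 5.90 and 5.62, and Dsc2, a cadherin, from 3.10, 2.82 and 2.83 to 4.90, 5.09 and 4.82. Both were about 4-fold higher (4.15 and 4.05), whereas Dsg2, the desmoglein of simple epithelia, had 1.54, 1.47 and 1.39 against 1.49, 1.61 and 1.68. Of 14 genes of the hemidesmosome and basement membrane, 4 rose, among them Lamb3 of a laminin (2.58-fold). Over all genes 5.98% were apart and higher and 11.7% rose.

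Claudins, which set the permeability of tight junctions, moved in both directions. Of 20 tight junction genes 10 rose and 2 fell, where 11.7% and 8.78% of all genes did. Cldn23 rose from 3.99, 4.23 and 4.05 to 6.06, 5.94 and 5.93, and the scaffold Tjp3 and the adhesion protein F11r were 3.69-fold and 3.58-fold higher. Cldn11 fell from 3.54, 4.45 and 3.97 to 1.53, 1.29 and 1.07 (6.45-fold lower, log2 change -3.05 ± 0.34 SE by the labels, limma adjusted p = 0.000273), and Cldn6, an embryonic claudin, fell from 1.66, 1.96 and 1.65 to 0.16, 0.04 and -0.11.

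Transcription factors of epithelia showed a few large changes among many small ones. Of 28 measured, 8 were apart and higher and 2 lower, and 7 rose and 1 fell by the labels, while 13 rose and none fell without both arrays. Grhl1, a grainyhead factor of desmosomal genes, rose from 2.35, 2.09 and 2.02 to 4.69, 5.17 and 4.93 (6.83-fold), Hopx, a homeodomain cofactor, was 6.24-fold higher, and Elf3, an ETS factor of differentiating epithelium, 5.56-fold. Ovol1 and Ehf were 2.97-fold and 2.96-fold higher and rose too. Zfp750, which drives terminal differentiation, had 4.43, 3.91 and 4.18 against 5.78, 6.06 and 5.76. It did not pass by the labels (limma adjusted p = 0.101). In the fit without both arrays, which is a description only, its limma adjusted p was 0.00386.

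Factors that set esophageal identity differed less. Sox2 had 6.73, 6.36 and 6.42 against 6.81, 6.63 and 6.71, Trp63, the master factor of stratified epithelia, 2.51, 2.59 and 2.64 against 2.98, 2.89 and 3.01, and Klf4 2.36, 2.55 and 2.29 against 2.45, 2.98 and 2.48. None of them passed by the labels. Foxa2, a foregut endoderm factor, was the exception, with 4.82, 4.75 and 4.8 in the late embryo, 6.20 on E15.5 replicate 1 and 1.62, 2.16 and 1.63 at P0. It fell by the labels (log2 change -3.45 ± 0.87 SE, limma adjusted p = 0.0191), with an adjusted p of 0.0559 without both arrays. Its relative Foxa1 had 2.14, 1.89 and 1.94 against 2.33, 2.41 and 2.61.

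**Figure D2:**
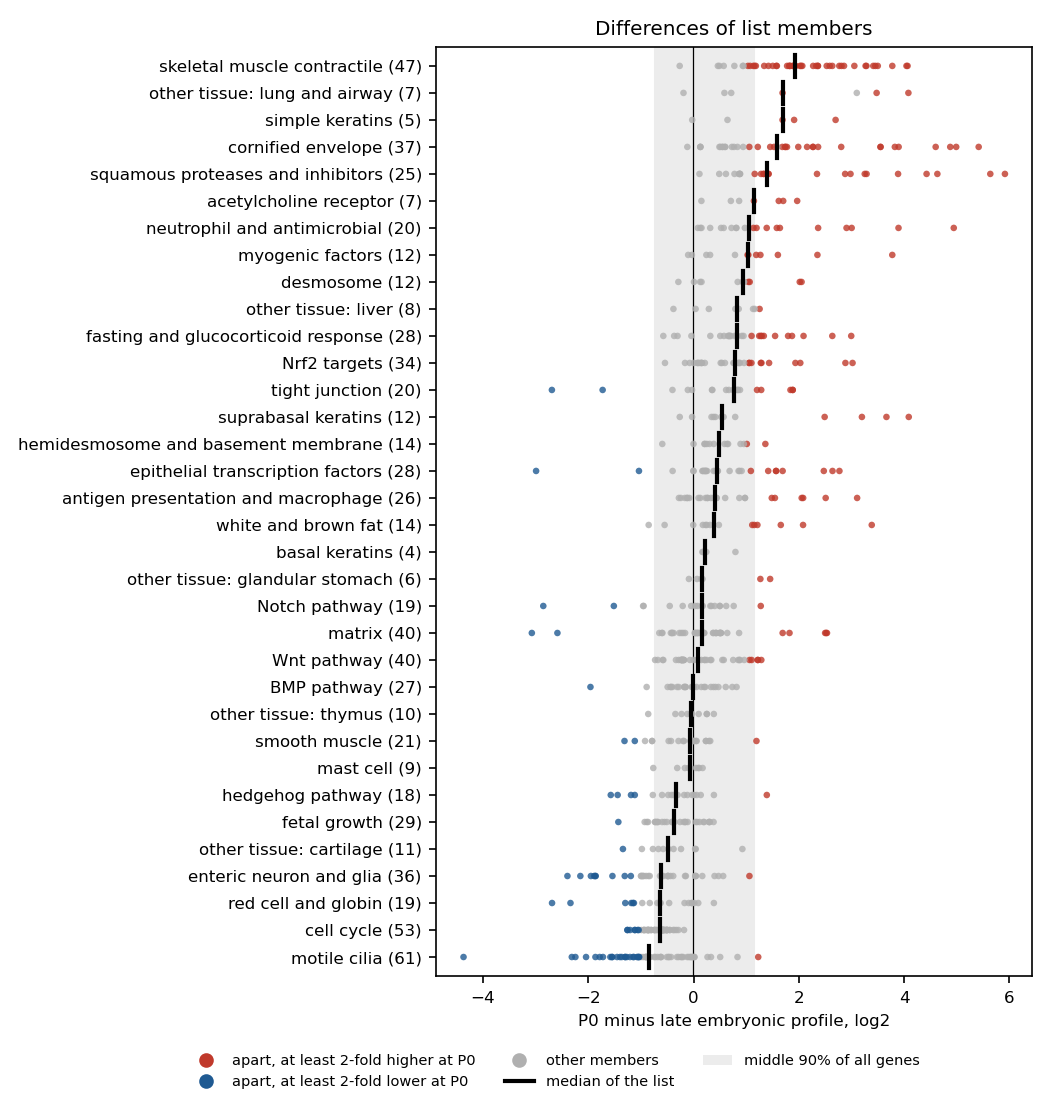
Difference between P0 and the late embryonic profile in log2 units (x axis) for each measured member of each gene list (rows, with the number measured), coloured where the 3 arrays of each stage were apart and at least 2-fold different. Black bars mark list medians, from 1.92 for skeletal muscle to -0.85 for motile cilia, and the grey band holds the middle 90% of all genes.

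Genes of the motile cilium, the beating organelle built by Foxj1 and the multiciliogenesis factors around it, were lower at birth on the regrouped arrays. Of 61 measured, 23 were apart and lower at P0 and 1 was higher, with a median difference of -0.85. The median log2 ratio of the list was 1.53 to 1.85 on the late embryonic arrays, 0.55 to 0.85 at P0, and 0.04 to 0.10 at P7. It was 0.02 on E15.5 replicate 1 and about 0 on E11.5 replicates 1 and 2 (-0.007 and -0.010), so this group depends on which arrays stand for E15.5. Of the 60 tested by the labels 4 fell and 2 rose, and without both arrays 37 were called lower and 1 higher. With the 3 arrays labelled E15.5 as the earlier profile, the median difference was -0.23, and 8 were apart and lower.

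Beside Ccno above, these included Deup1, which builds the deuterosomes on which centrioles multiply (2.09, 1.95 and 1.91 against -0.37, 0.15 and 0.06, 4.12-fold lower, detected on 1 of 3 newborn arrays). Zmynd10, which assembles dynein arms, had 3.29, 2.78 and 3.06 against 0.55, 0.82 and 0.83 (4.97-fold), and Spag6l, of the central pair, 4.21, 3.36 and 3.62 against 1.22, 1.61 and 1.63 (4.74-fold). The 3 arrays of each set stood well apart in each. None of the 3 passed by the labels (limma adjusted p from 0.0934 to 0.549).

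The transcription factors of the ciliated cell differed by less. Foxj1 had 4.50, 4.19 and 4.49 in the late embryo and 3.18, 3.65 and 3.22 at P0, which is 2.06-fold lower and still above the reference. E15.5 replicate 1 read 1.00, and with the 3 arrays labelled E15.5 the difference turned to 0.12. Its change by the labels was 0.12 ± 1.08 (SE, limma adjusted p = 0.953) and without both arrays -0.99. Myb, which acts early in multiciliated cells and in blood progenitors, had 0.12, 0.28 and 0.03 against -1.19, -1.15 and -1.31. Rfx2 and Rfx3, which bind the X-box, differed by 0.33 and -0.05.

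Axonemal genes kept part of their level at birth. Ccdc113 had 4.60, 4.10 and 4.13 against 2.49, 3.24 and 2.75, Tekt1, a tektin of the microtubule doublets, 4.34, 3.96 and 4.19 against 2.74, 3.40 and 2.95, and Rsph1, of the radial spoke, 3.17, 2.76 and 2.98 against 1.13, 1.71 and 1.43. Tekt2, Mns1 and Tuba1a, the last a tubulin of neurons as well, were among the 4 that fell by the labels. Cfap43 (on the array as D19Ertd652e) was the one member apart and higher, with 0.82, 0.42 and 0.64 against 1.48, 2.14 and 1.95. Hydin and Dnaic1, also of the axoneme, differed by 0.02 each.

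**Figure D3:**
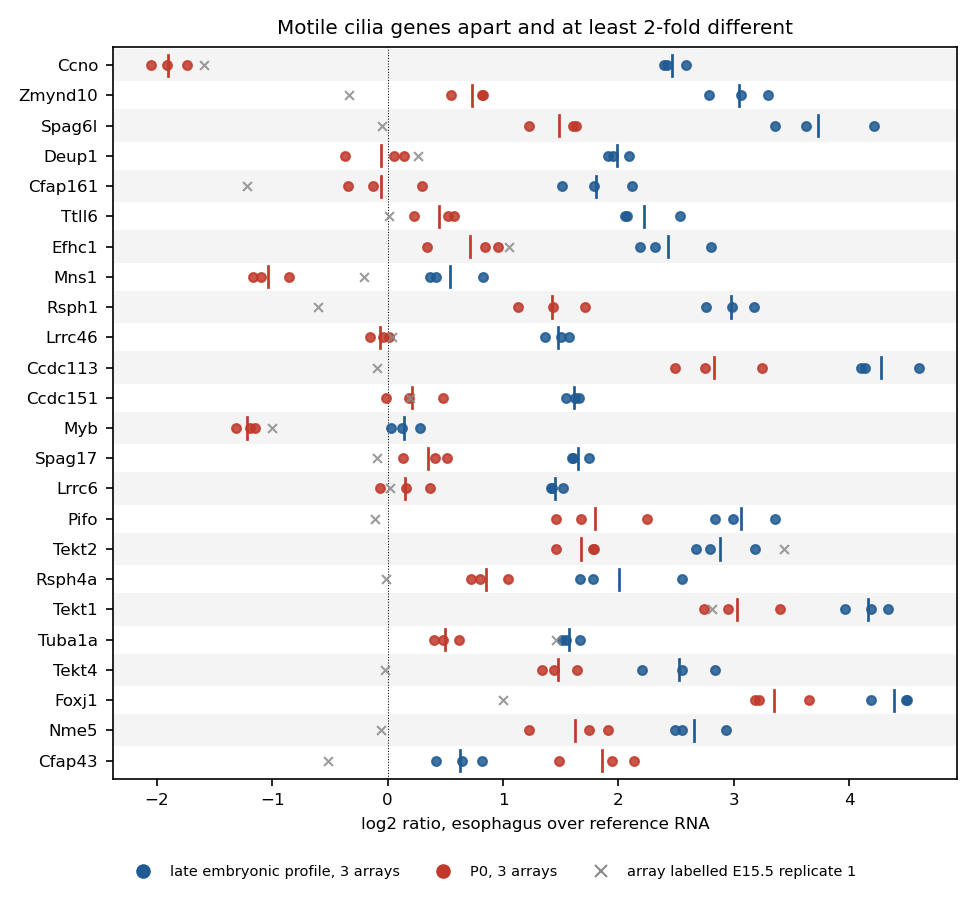
Log2 ratio of esophagus to reference RNA (x axis) for the 24 motile cilia genes that were apart and at least 2-fold different (rows), 1 point per array, with bars at the mean of 3 arrays. P0 lies below the late embryonic arrays in 23 rows and above them in the row of Cfap43, and E15.5 replicate 1 lies with the embryonic arrays for Tekt2 and Tuba1a.

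Skeletal muscle genes were higher at P0 almost throughout. Of 47 genes of the contractile apparatus and its energy supply, 40 were apart and higher and none lower, with a median difference of 1.92; 36 rose by the labels and 32 without both arrays. The list median was 0.49 to 1.44 on the late embryonic arrays and 2.70 to 3.33 at P0. Within the late embryonic profile the array titled E11.5 replicate 3 had the lowest list median and E15.5 replicate 3 the highest, and at P0 replicate 2 had the lowest.

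Fast-fibre and Z-disc proteins led. Myot (myotilin) had 1.68, 2.63 and 0.39 against 5.66, 4.69 and 6.55 (16.8-fold), Myoz1, a calcineurin-binding Z-disc protein, -0.34, -0.27 and -0.51 against 3.79, 3.15 and 4.10 (16.5-fold), and Myl1, a fast myosin light chain, 1.24, 2.21 and 0.79 against 4.84, 4.58 and 5.32 (11.3-fold). Of the myosin heavy chains, fetal and adult fast forms were 2.68-fold (Myh8), 3.70-fold (Myh4), 2.54-fold (Myh2) and 2.27-fold (Myh1) higher, and all 4 rose. Smpx, a small muscle protein, had high ratios at both stages, 4.84, 5.04 and 4.45 and then 7.05, 6.81 and 7.54. Titin, Ttn, was 4.12-fold higher.

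The factors that make muscle were higher as well. Myf6, the late myogenic factor, had 0.33, 1.15 and 0.02 against 4.05, 3.62 and 5.15, 13.7-fold higher (log2 change 3.77 ± 0.57 SE by the labels, limma adjusted p = 0.0016). Myog (3.04-fold) and Myf5 (2.04-fold) rose, and Myod1 had 0.59, 0.72 and 0.23 against 1.87, 1.52 and 1.97 (adjusted p = 0.0536). Pax7, of satellite cells, was not well above background in the embryo and had 0.79, 0.46 and 0.30 at P0, which overlapped with the late embryonic ratios. Of 7 genes of the acetylcholine receptor and its clustering, 5 rose, among them the fetal subunit Chrng (3.07-fold), while the adult subunit Chrne had 0.02, 0.35 and -0.01 against 0.29, 0.08 and 0.45.

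Smooth muscle genes did not share this step. Of 21 measured none rose and 4 fell, where 11.7% and 8.78% of all genes did, and the median difference was -0.06. Acta2, smooth muscle actin, had 2.13, 2.12 and 2.12 against 2.31, 2.12 and 2.12, and Myh11, its myosin, 4.88, 4.92 and 5.14 against 5.10, 4.70 and 5.16. The 4 that fell were regulators and a receptor of mesenchyme, namely Foxf1, Foxf2, Tbx18 and Itga8, with Tbx18 at 1.61, 1.62 and 1.49 against 0.28, 0.13 and 0.37.

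Neural genes were lower at birth. Of 36 genes of enteric neurons and glia, 9 were apart and lower and 1 was higher, the median difference was -0.63, and of the 35 tested by the labels 8 fell and 3 rose. Neurofilaments led, with Nefl at 4.25, 4.18 and 4.44 against 1.98, 1.76 and 1.94 (5.26-fold) and Nefm at 3.04, 2.90 and 3.10 against 1.04, 0.99 and 1.16 (3.86-fold). Phox2a, a determinant of autonomic neurons, had 3.42, 3.29 and 3.58 against 1.28, 1.20 and 1.37. It did not pass by the labels (limma adjusted p = 0.0708). In the fit without both arrays, which is a description only, its limma adjusted p was 0.0101. Elavl4, an RNA-binding protein of neurons, and Fabp7, of glial precursors, fell too, by 3.70-fold and 3.65-fold. Mbp, a myelin protein, was the one that was apart and higher, at 1.02, 0.95 and 0.90 against 2.18, 1.99 and 1.88, and Sox10, of the glial lineage, had 1.65, 1.81 and 1.79 against 1.32, 1.08 and 1.14.

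Cell cycle genes were lower by a small and even step. All 53 had a lower mean at P0, and 52 of them had arrays apart in that direction at any fold, where 25.9% of all genes did; 7 were apart at 2-fold or more, 39 fell by the labels and 41 without both arrays. The list median was -0.30 to -0.27 on the late embryonic arrays and -1.0 to -0.72 at P0. Bub1, a kinetochore kinase, had -0.94, -1.40 and -1.28 against -2.64, -2.35 and -2.40 (2.39-fold), and the S-phase cyclin Ccne2 0.72, 0.47 and 0.63 against -0.70, -0.73 and -0.52 (2.38-fold). Mki67, the usual marker of cycling cells, fell by less, from -0.28, -0.04 and -0.11 to -0.72, -1.13 and -1.0, and Cdk1 had -0.39, -0.44 and -0.42 against -0.61, -0.83 and -0.67.

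**Figure D4:**
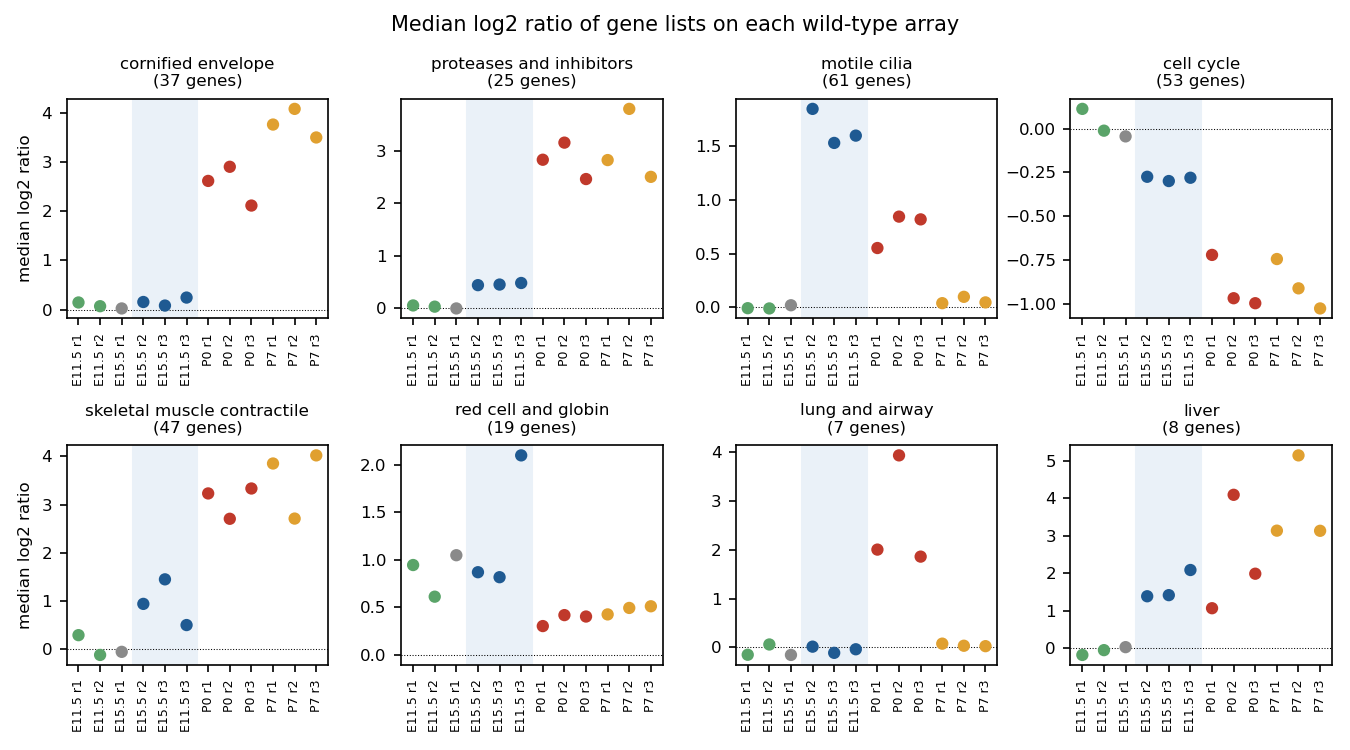
Median log2 ratio (y axis) of 8 gene lists on each of the 12 wild-type arrays (x axis, ordered by likeness, with r for replicate), with the 3 late embryonic arrays on a shaded ground. Envelope genes and proteases stand near 0 to 0.5 before birth and above 2 after it, motile cilia genes peak on the shaded arrays, and the lung and liver lists are highest, among the P0 arrays, on replicate 2.

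In the hedgehog pathway, in which epithelium signals to the mesenchyme, feedback targets fell, and the direction of the ligand varied with the processing. Of 18 genes 4 were apart and lower and 1 higher, and 8 fell and 1 rose by the labels. Shh, the ligand, had 4.65, 4.52 and 4.57 in the late embryo, 5.66 on E15.5 replicate 1 and 2.96, 3.04 and 3.02 at P0 (2.97-fold lower, adjusted p = 0.0254 by the labels and 0.0791 without both arrays, limma). From the signals that the scanner software had processed, the difference of Shh was 0.03, so its direction was not settled. Hhip, a decoy receptor induced by the pathway, had 3.56, 3.75 and 3.83 against 2.20, 2.21 and 2.40, and Ptch1, receptor and target, 1.76, 2.00 and 1.89 against 0.68, 0.47 and 0.93. Both fell, as did the mesenchymal target Foxf1 and the effector Gli1, whose difference was -0.48. Dhh, the ligand of Schwann cells, rose instead, from 0.53, 1.61 and 1.81 to 3.13, 2.77 and 2.22, and Ihh was near 0 on all 6 arrays (-0.15 to 0.14).

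The Notch pathway, which works between neighbouring cells, had 2 of 19 genes that rose and 2 that fell by the labels, shares near those over all genes (11.7% and 8.78%), with a median difference of 0.16. The receptor Notch4, of endothelium, rose from 1.48, 2.19 and 1.91 to 3.19, 3.16 and 3.06, and the ligand Dll1 from 1.76, 1.57 and 1.47 to 2.39, 2.34 and 2.36. Dll3 fell as given above, and the modifier Mfng fell from 0.04, 0.04 and 0.08 to -1.02, -0.95 and -0.72. Hes5, a target in neural progenitors, had 1.26, 1.32 and 1.24 against -0.01, -0.57 and -0.13. It did not pass by the labels, and was called lower only in the fit without both arrays, which is a description. The general target Hes1 had 0.97, 0.92 and 0.90 against 1.19, 1.29 and 1.27.

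**Figure D5:**
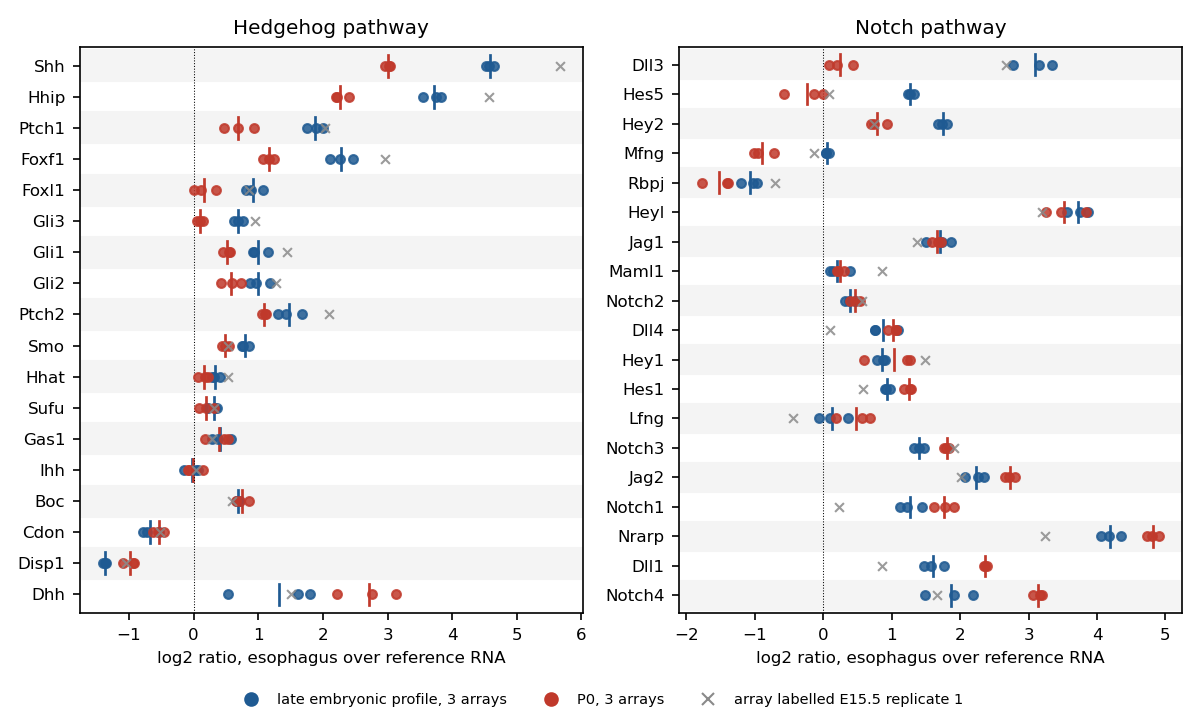
Log2 ratio of esophagus to reference RNA (x axis) for the 18 measured hedgehog genes and the 19 measured Notch genes (rows, ordered by difference), 1 point per array, with bars at the mean of 3 arrays. Hhip, Ptch1 and Foxf1 differ by -1.44 to -1.12 and Dhh lies higher, Shh differs by -1.57 here and by 0.03 in the processed signals, and in the Notch panel Dll3 and Hes5 lie lower and Notch4 higher.

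BMP and Wnt genes were read in the same way. Of 27 BMP genes 1 rose and 3 fell, among them Sostdc1, a secreted antagonist, from 8.14, 7.83 and 7.93 to 6.13, 5.83 and 6.06, and the ligand Bmp4, from 0.68, 0.72 and 0.76 to -0.15, -0.27 and -0.09. Of 38 Wnt genes tested 6 rose and 2 fell. The counts of both lists are not far from the shares over all genes (11.7% and 8.78%). Median differences were -0.02 for BMP genes and 0.08 for Wnt genes. The ligand Wnt7b rose from -0.11, 0.07 and -0.09 to 1.04, 1.37 and 1.34, and Wnt6 was 2.09-fold higher. Axin2, a general target of the pathway, had 1.49, 1.40 and 1.3 against 1.36, 1.32 and 1.81, with 3.32 on E15.5 replicate 1, and Lef1 differed by -0.22; neither passed.

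Targets of Nrf2, the factor of the antioxidant response, were raised in part. Of 34 measured, 10 were apart and higher and none lower, the median difference was 0.79, and 15 rose and none fell by the labels. Glutathione transferases led, with Gsta1 at -0.35, -0.47 and -0.45 against 2.68, 2.59 and 2.52 (8.12-fold), Gsta2 7.39-fold and Gsta4 4.08-fold higher, and then Me1, which makes NADPH, 3.83-fold. Gsta1 and Gsta2 are near copies, and their probes may share signal. The catalytic subunit Gclc of glutathione synthesis rose 2.14-fold, while Nqo1, a much used target, had -1.72, -1.88 and -1.60 against -1.62, -1.54 and -1.78, and Hmox1 and Txnrd1 did not pass. Nfe2l2, which encodes Nrf2, rose from -1.75, -1.45 and -1.57 to -0.96, -0.66 and -0.79, and Keap1, its repressor, had 0.20, 1.03 and 0.29 against 0.47, 0.32 and 0.50.

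Genes of fasting and of the glucocorticoid response, which birth brings to many tissues, were raised in part as well. Of 28 measured 18 rose and none fell, 11 were apart and higher, and the median difference was 0.83. Pdk4, which holds back glucose oxidation, had 0.70, 0.20 and 0.58 against 3.32, 3.30 and 3.85 (7.98-fold), the phosphatase Dusp1 was 6.22-fold and Txnip 4.26-fold higher, and Cpt1a, the gate of fatty acid oxidation, 2.42-fold. Tsc22d3 (GILZ) and Klf9, both direct glucocorticoid targets, rose 2.37-fold and 2.52-fold. Fgf21 and the receptor Nr3c1 differed by 0.32 and -0.04 and did not pass. Of 14 genes of fat tissue 4 rose, among them Cidea, of lipid droplets (difference 3.39), and Dgat2, of triglyceride synthesis (2.08), while Fabp4 and Plin1, which mark fat cells, did not pass.

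Defence genes accompanied the barrier. Of 20 neutrophil and antimicrobial genes 10 were apart and higher, and of the 21 tested by the labels 7 rose and none fell. Among the 20, 4 were well above background on no late embryonic array and counted as measured through P0 alone. Defb1, another beta-defensin, was at least 21.6-fold higher by Cy5 alone, with 4.65, 5.04 and 5.10 at P0 and no late embryonic array well above background, and Ltf (lactoferrin) had 2.35, 1.87 and 2.71 against 5.21, 5.42 and 5.32 (8.02-fold). Reg3g, a lectin that kills bacteria, differed among the newborn arrays, at 2.06, 4.99 and 5.87. The genes of neutrophil granules proper, Mpo and Ctsg, had sets that overlapped. Of 26 genes of antigen presentation and macrophages 11 rose, with the scavenger receptor Cd163 at 0.38, 1.35 and 0.44 against 3.58, 4.05 and 3.87 (8.62-fold, detected on 2 of 3 late embryonic arrays), and Adgre1, of macrophages, had a difference of 0.38, which passed narrowly by the labels (limma adjusted p = 0.047) and not without both arrays (0.129). Ptprc, the pan-leukocyte marker, differed by 0.13 and did not pass.

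Among 40 genes of the matrix, 8 rose and none fell by the labels, and 5 were apart and higher. Over all genes 11.7% rose and 8.78% fell, and the median difference of the list was 0.15. Periostin, Postn, had 0.75, 2.63 and 1.99 against 4.19, 4.38 and 4.37 (5.74-fold), and Aspn (asporin) 2.00, 1.84 and 1.83 against 4.22, 4.52 and 4.43 (5.66-fold). Col1a1, the main fibrillar collagen, had 2.33, 2.52 and 2.21 against 1.79, 1.89 and 2.07. Tnn and Tnmd, of forming tendon and bone, were apart and lower, from 2.98, 2.65 and 2.69 to 0.33, 0.29 and -0.07 for Tnmd.

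Globins of the embryo were lower at birth, by an amount that varied with 1 array. Hba-x, an embryonic alpha-type globin, had 2.27, 2.40 and 3.44 and was not well above background at P0, 6.44-fold lower by the ratios and at least 6.46-fold by Cy5 alone, and it fell by the labels (log2 change -3.04 ± 0.64 SE, limma adjusted p = 0.00856). Hbb-y had 1.71, 2.30 and 3.76 against 0.46, -0.11 and 0.40. The array titled E11.5 replicate 3 was the highest of its set for both, and E15.5 replicate 1 stood at 4.51 and 7.52. Of 19 red cell genes 6 were apart and lower with that array and 2 without it. Among the 19, 4 were well above background on no P0 array and counted as measured through the late embryonic arrays alone. The adult Hba-a1 had 3.86, 3.98 and 4.45 against 4.23, 4.02 and 3.93.

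Markers of neighbouring tissues were read on the same arrays. Of 7 lung and airway genes, 3 were apart and higher and 4 rose. Among the 7, 2 were well above background on no late embryonic array and counted as measured through P0 alone. Sftpd, a surfactant protein, was at least 12.8-fold higher by Cy5 alone and not well above background on any late embryonic array, with 3.65, 3.93 and 4.19 at P0, and Scgb3a1 was 11.1-fold higher by the ratios and at least 26.7-fold by Cy5 alone, with 2.00, 4.23 and 4.42. Sftpc, the marker of alveolar cells, had 1.47, 1.00 and 1.05 against 2.69, 4.05 and 1.86. The list median was between -0.11 and 0.01 on the late embryonic arrays, 2.00, 3.93 and 1.86 at P0 and 0.02 to 0.08 at P7, so P0 replicate 2 was the highest. Nkx2-1, the factor that defines lung and trachea, did not pass the filter on dim probes.

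P0 replicate 2 also read high for liver genes. The median of 8 of them was 1.38 to 2.08 on the late embryonic arrays and 1.06, 4.09 and 1.98 at P0, and Afp had 1.57, 1.68 and 2.20 against -0.69, 4.10 and 0.88. None of the 8 passed by the labels. Among other neighbours 1 of 11 cartilage genes rose and 2 fell, 1 of 10 thymus genes fell, and 2 of 3 thyroid genes rose. Over all genes 11.7% rose and 8.78% fell, and these lists are small. For cartilage the median difference was -0.48, and 7 genes had arrays apart and lower at any fold, where 25.9% of all genes did. Without both arrays 5 cartilage genes were called lower and 1 higher. Of 6 genes of the glandular stomach, 2 were apart and higher and none rose by the labels. Tff2, not well above background on any late embryonic array, was at least 3.07-fold higher by Cy5 alone. Tff1 read 2.84 on P0 replicate 2 and 0.08 and 0.03 on the other P0 arrays. All 8 liver genes had their highest P0 value on replicate 2, while of the 7 lung and airway genes 3 were highest on replicate 2 and 4 on replicate 3. The part of neighbouring tissue in the results above was not tested.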

How the data were processed

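Whole esophagi were hybridised to Agilent 2-colour arrays. The authors deposited scanner intensities per spot, background-subtracted and dye-normalized intensities, and log10 ratios of sample to reference, per the file headers from Feature Extraction 10.5.1.1 (the labels name version 9.1). Spot means were corrected here by normexp (offset 50), a local background over 5 times the array median being replaced by that median and the spot left out, and normalized by loess within each array to log2 ratios in limma 3.58.1 (R 4.3.3). Outlier-marked spots were kept, 1639 control spots of 45018 dropped, probes averaged per gene, and dim genes dropped unless at least 3 arrays had Cy5 well above background. Of 41174 probes, 23075 were named through RefSeq accessions and 18099 as in the files. "At least N-fold" compares mean normalized Cy5 of the bright set with the higher of the dim probe and the lowest signal well above background. That Cy5 signal was rebuilt from the normalized ratios and the mean intensities of both channels, the latter made alike across arrays. The value is not a lower limit of the change. It is open to dye bias, since no dyes were swapped. The array number, 3 per set, limits precision. The test was limma with Benjamini-Hochberg adjustment over all genes. Its check on simulated data drew independent noise around group means, so it does not cover the discordant E15.5 replicate 1 or the slides. Genes named are list members with the largest differences, regulators, and the 10 largest increases and decreases; others were chosen after their values were seen. Members and lists were chosen with earlier results of these data known. One gene is not reported here.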

Additional observations from a re-analysis of the deposited data

How the results depend on the processing

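Counts moved with the fold required, the background, the signals used and the arrays left out. Without the 2-fold minimum, 4964 genes were apart and higher and 5029 lower, in place of 1162 and 424. With each spot's own local background, 257 genes were apart and lower, and the labelled test called 1057 higher and 739 lower in place of 2279 and 1710. Genes apart and lower numbered 982 from the processed signals and 984 from the deposited ratios. Leaving out 1 array at a time, the labelled test called 1487 to 2166 higher and 816 to 1600 lower. Among genes apart, 73.27% were higher, against 62.16% from processed signals, 62.14% from deposited ratios and 60.38% with median centring, and among genes called by the labels 57.13%, against 40% with median centring. The difference of Shh reversed to 0.02797 from the processed signals and 0.03322 from the deposited ratios, and that of Foxj1 to 0.1213 with the 3 arrays labelled E15.5, and for Shh the cause was not tested. With the replicate number as a block, 2437 genes were called higher and 1815 lower; same-numbered arrays of E15.5 and P0 deviated together at r = -0.042, 0.052 and 0.0042, so the numbers were not taken as a pairing. All 12 arrays had the same scan date, so a block of scan date could not be fitted. No slide held both stages, so slide entered as a random block (2097 higher, 1490 lower). Of 119 named genes called by the labels none changed sign; 41 no longer passed with each spot's own local background, 24 from the deposited ratios, 26 without P0 replicate 2 and none with the replicate block. Signals near background leave the fold of the dimmest genes uncertain.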
